A study of Saccharomyces cerevisiae with 4 samples.

Results

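The SIR3 deletion was compared directly with the SIR4 deletion in Saccharomyces cerevisiae, budding yeast, gene by gene, with the level in the SIR4 deletion subtracted from that in the SIR3 deletion. The comparison used 2 of the 4 arrays of the study, 1 for each strain, and covered 5449 genes measured by 5498 probe sets. The other arrays held the SIR2 deletion and the wild type, BY4742, which is a haploid of mating type alpha. They are given beside a result to place its levels, and serve as a baseline only for a midpoint given below and in the closing counts for other pairs of arrays. Per the labels each SIR gene was replaced by homologous recombination using KanMX, a drug resistance marker, so every deletion strain carries it. Cultures of 5 ml in YPD, which is a rich glucose medium, were kept at 30 °C and taken in exponential phase at a density of 0.7. The labels do not give the parent strain of the deletions or the number of clones. With 1 array a strain there was no replicate and no test, and strain, culture and array cannot be told apart for any value below.

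Sir2, Sir3 and Sir4 form the complex that silences the mating loci HML and HMR and genes near telomeres. Sir4 is the scaffold that is recruited by silencer-bound and telomere-bound proteins and that brings in Sir2, the deacetylase of histone tails. Sir3 binds deacetylated nucleosomes and lets the complex spread along chromatin. Loss of either protein ends silencing at HML and HMR. A cell then expresses the genes of both mating types and turns off the haploid and alpha-specific genes, as a diploid does. The comparison therefore asks where removal of the spreading subunit and removal of the scaffold left different RNA levels.

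The values were log2 RMA levels, and a gene was called where the strains differed at least 2-fold, which is 1 on the log2 scale. In the SIR3 deletion 27 genes were called higher, 0.496% of those measured, and 42 were called lower, 0.771%. Together these are 1.27% of all genes. The median difference of all genes was -0.03, and 5028 genes lay within 0.5 of 0. Differences were above 0 in 43.5% of genes and below 0 in 56.4%. The background level, taken from probe sets that target another yeast species, was 4.39 in the SIR3 deletion, against 4.28 in the SIR4 deletion, with 5306 and 5320 genes above it. Of those 1746 probe sets none was called between these arrays, and their differences had an SD of 0.242. The 1090 dimmest genes held 9 of the higher and 26 of the lower calls, and the SD of the differences was 0.477 there against 0.202 in the 1090 brightest.

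**Figure D1:**
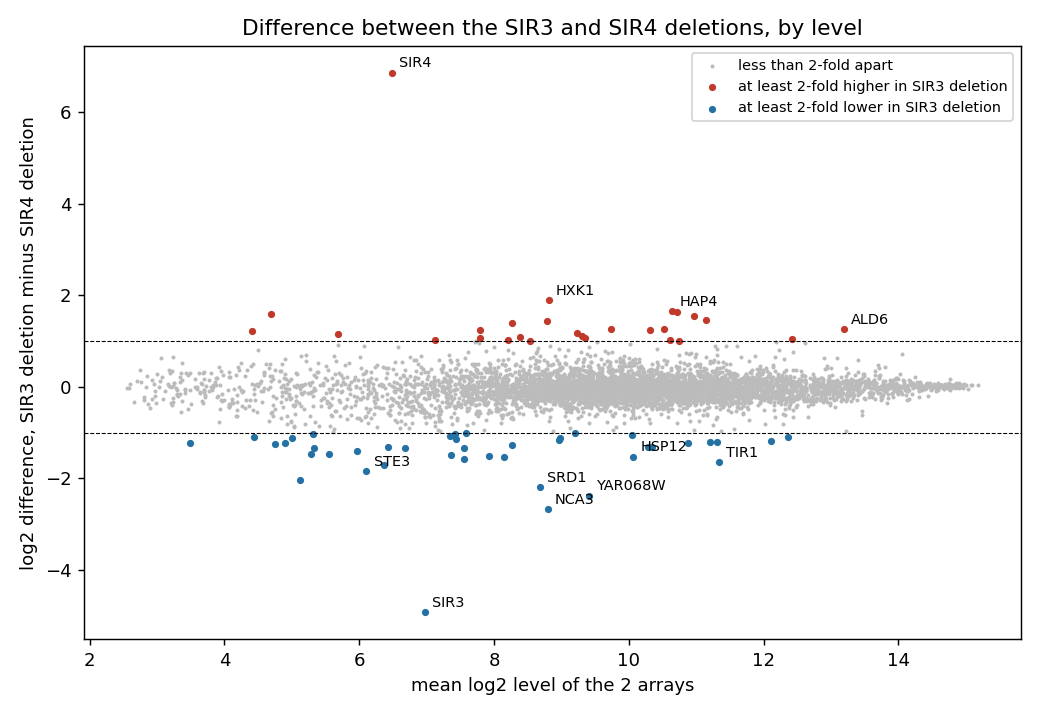
Log2 difference (SIR3 deletion minus SIR4 deletion) of each of 5449 genes against the mean log2 level of the same arrays. Red points are the 27 genes called higher, blue points the 42 called lower, dashed lines mark the 2-fold limits; SIR4 at 6.86 and SIR3 at -4.93 stand farthest from 0, and the dim genes on the left spread most.

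The deleted genes were the farthest apart of all genes. SIR4 was at 9.91 in the SIR3 deletion, against 3.05 in the SIR4 deletion, which is below background, so it was at least 49.6-fold higher in the SIR3 deletion. SIR3 was at 4.51 in the SIR3 deletion, just above background, against 9.44 in the SIR4 deletion, or 30.4-fold lower. Both labels therefore match the gene that is low. SIR2 was at 10.34 in the SIR3-deleted strain and 9.81 in the SIR4-deleted strain, a difference of 0.52 that was not called. The nearest measured genes beside the deleted loci differed little. RPS1A and ECM7 beside SIR3 had differences of -0.06 and -0.41, and ADK1 and PCF11 beside SIR4 had -0.15 and -0.17.

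Of the genes that differed, 26 higher and 41 lower remain without the deleted genes. The levels of the other arrays place them. The wild-type level was nearer to that of the SIR4 deletion in 22 of the 26 higher and 36 of the 41 lower genes. The SIR2 deletion was divided, nearer to the SIR3 deletion in 16 of the higher and 19 of the lower genes. The matching shares of all genes were not counted, so these counts are not read as particular to the called genes. Over all genes, differences from wild type had an SD of 0.435 in the SIR4 deletion and 0.495 in the SIR3 deletion. Differences from the SIR2 deletion had 0.378 and 0.315. Among the higher genes the SIR4 array was the lowest of the 4 in 18 and the SIR3 array the highest in 15, where over all genes these shares were 18.2% and 18.0%. Among the lower genes the SIR3 array was the lowest of the 4 in 32 and the SIR4 array the highest in 23, against 23.7% and 30.6% of all genes. Measured from the midpoint of the SIR2 deletion and wild type, the SIR3 array was the farther of the pair in 12 of the higher and 29 of the lower genes, against 44.9% of all genes, and the SIR4 array in 14 and 12. These shares are a description, since a gene picked for a gap between a pair of arrays tends to have those arrays at the extremes.

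**Figure D2:**
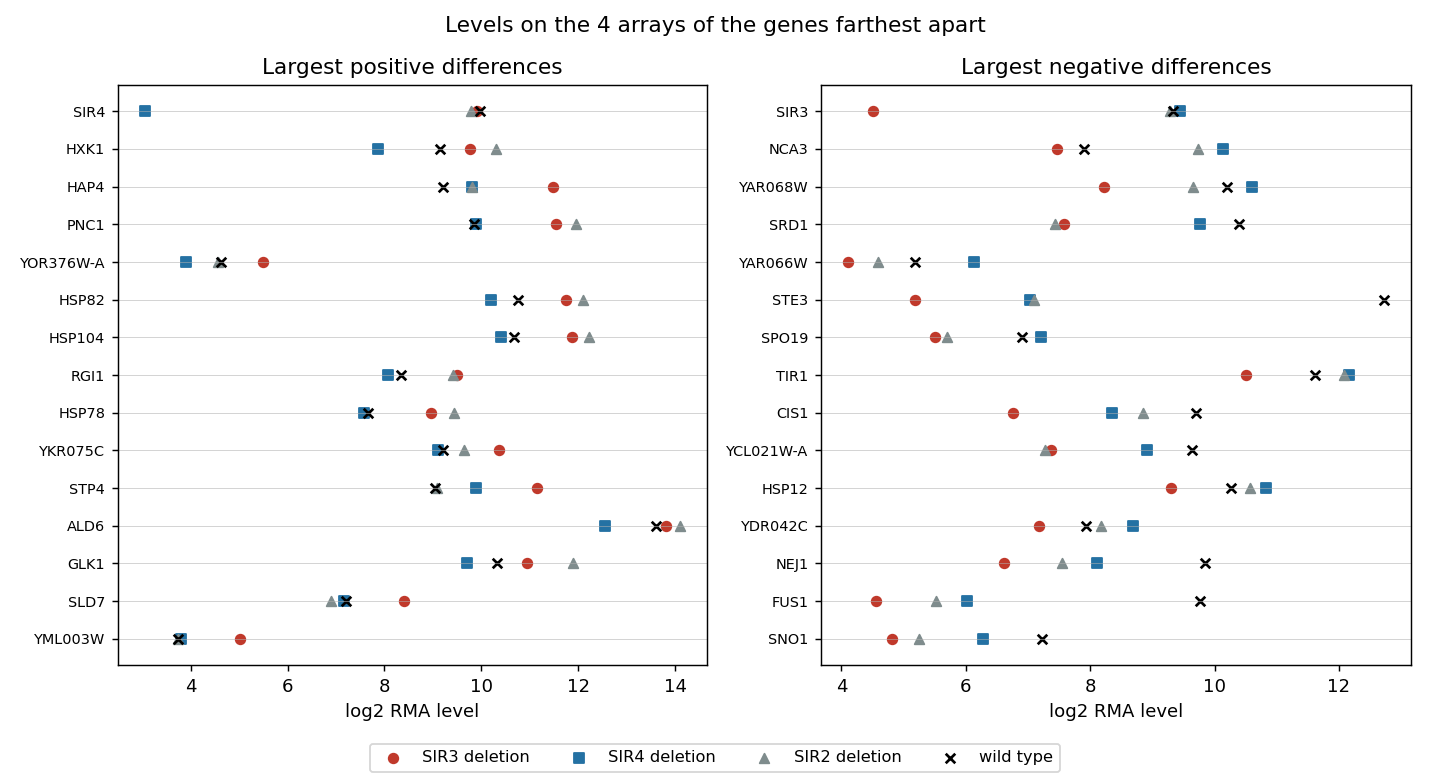
Log2 RMA level of the 15 genes with the largest positive and the 15 with the largest negative difference that lay above background on at least 1 of the arrays compared; each symbol is 1 array. In HSP104, HSP78 and PNC1 the SIR4 deletion lies near wild type and the SIR3 deletion near the SIR2 deletion, while HAP4, STP4 and SLD7 are highest on the SIR3 array.

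Several chaperone genes, HSP82, HSP104, HSP78 and STI1, were called higher in the SIR3 deletion. Chaperones help proteins fold, and those of the Hsp90 and Hsp104 systems are induced when proteins are damaged. HSP82, the inducible Hsp90, was at 11.74 in the SIR3 deletion, against 10.20 in the SIR4 deletion, or 2.92-fold higher. The SIR2 deletion had 12.10 and wild type 10.75, so the SIR4 deletion lay lowest. In these bulk cultures, fewer cells with the RNA and less RNA per cell cannot be told apart, here or below. HSP104, the disaggregase, was at 11.87 in the SIR3 deletion, against 10.41 in the SIR4 deletion, or 2.75-fold higher. HSP78, its mitochondrial relative, was at 8.97 and 7.57 in the SIR3-deleted and SIR4-deleted strains, or 2.63-fold higher. STI1, a partner protein of Hsp90, differed by 1.05.

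All 14 members of the heat shock chaperone list had a positive difference, against 43.5% of all genes. Of them 2, HSP82 and STI1, were called higher, against 0.496% of all genes. Chaperone genes held in the general stress list instead went both ways. Besides HSP104 and HSP78, HSP42 had 0.99, while SSA3, SSA4 and HSP26 had -0.21, -0.22 and -0.73. The list median was 0.35, against -0.03 for all genes. The Hsp40 gene SIS1, at 12.68 in the SIR3-deleted strain and 11.69 in the SIR4-deleted strain, lay just under the limit with 0.99. SSA1, an Hsp70 gene, had 0.63. HSC82, the constitutive Hsp90, had 0.21, and the members nearest to 0 were HSP10, SSA2 and SSE1, at 0.09, 0.09 and 0.07. The SIR4 array was the lowest of the 4 for 11 of the 14, and the SIR2 array the highest for 10, against 18.2% and 30.5% of all genes. HSP30, a plasma membrane heat shock gene outside the lists, differed by 1.10, and CUR1, a factor that sorts misfolded proteins, by 1.03.

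The general stress genes did not move as a block. Of 29 measured, 5 were called higher and 3 lower, against 0.496% and 0.771% of all genes. The list median was 0.14. The higher members were PNC1, HSP104, HSP78, GLK1 and TSL1. PNC1 encodes the nicotinamidase that clears nicotinamide, an inhibitor of Sir2. It was at 11.53 in the SIR3 deletion, against 9.89 in the SIR4 deletion, or 3.11-fold higher. Its level was 11.96 in the SIR2 deletion and 9.85 in wild type, so the SIR4 deletion was at the wild-type level. TSL1, a subunit of trehalose synthase, was at 9.82 in the SIR3-deleted strain and 8.64 in the SIR4-deleted strain. The other trehalose and glycogen genes of the list were not called, with 0.90 for GSY2, 0.71 for TPS1, 0.51 for TPS2 and 0.59 for GPH1.

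The lower stress genes were HSP12, DDR2 and YGP1. HSP12, a small membrane-associated stress protein, was at 9.30 in the SIR3 deletion, against 10.83 in the SIR4 deletion, or 2.88-fold lower. DDR2 was at 6.0 and 7.34 in the SIR3-deleted and SIR4-deleted strains, or 2.53-fold lower. YGP1, a secreted glycoprotein, was at 9.62 and 10.93, or 2.48-fold lower. DDR48 and HSP26 lay in the same direction at -0.92 and -0.73 without being called. The SIR3 array was the lowest of the 4 for HSP12, DDR2 and YGP1, whereas for the higher members the SIR4 array lay lowest or near wild type.

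**Figure D3:**
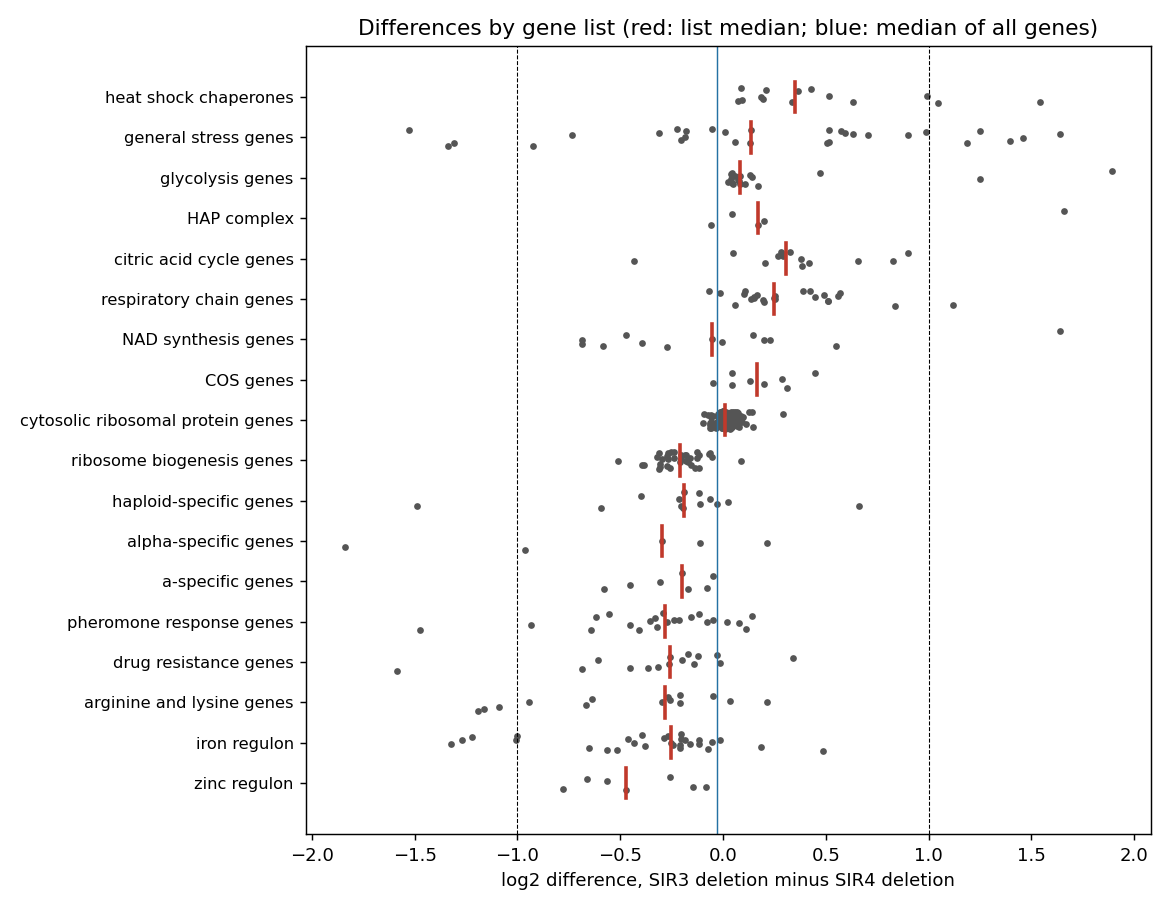
Log2 difference (SIR3 deletion minus SIR4 deletion) of each member of 18 gene lists, 1 point a gene, with the list median in red, the median of all genes (-0.03) in blue and the 2-fold limits dashed. All 14 genes of the chaperone list lie right of 0, the general stress genes spread to both sides, and 27 of 29 iron regulon genes lie left of 0.

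HXK1 and GLK1, genes of glucose phosphorylation, were called higher in the SIR3 deletion. HXK1, the hexokinase that is repressed in abundant glucose, had the largest positive difference after SIR4. It was at 9.76 in the SIR3 deletion, against 7.86 in the SIR4 deletion, or 3.71-fold higher, with 10.31 in the SIR2 deletion and 9.14 in wild type. GLK1, glucokinase, was at 10.94 and 9.69 in the SIR3-deleted and SIR4-deleted strains, or 2.38-fold higher. HXK2, the main hexokinase in glucose, had 14.23 and 14.08, a difference of 0.14. For HXK1 and GLK1 the SIR4 array was the lowest of the 4.

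The other glycolytic genes were close to equal. The 18 measured glycolysis genes all had positive differences, with 2 called and a median of 0.08. The SIR4 array was the lowest of the 4 for 16 of them. Over all genes 43.5% had a positive difference, 0.496% were called higher and the SIR4 array was lowest in 18.2%. ENO1 had 0.47, and TPI1 had 0.03. Most of these genes lie near the top of the range, where differences were small for all genes. Of 11 hexose transporter and sensor genes none was called, with a median of 0.06. HXT7, a high-affinity transporter, was at 10.03 in the SIR3-deleted strain and 9.04 in the SIR4-deleted strain, just under the limit with 0.99. The probe set of HXT7 can also match similar sequences. Among regulators of genes that respond to glucose, MTH1, a co-repressor of hexose transporter genes, differed by 1.03 and MIG2, a glucose repressor, by 1.02. ALD6 and ALD4, the cytosolic and mitochondrial acetaldehyde dehydrogenases that make acetate, differed by 1.26 and 1.01. ALD6 was at 13.81 in the SIR3 deletion, against 12.56 in the SIR4 deletion, with 14.11 in the SIR2 deletion and 13.60 in wild type.

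HAP4 and SDH1 were called higher in the SIR3 deletion among the genes of respiration. HAP4 encodes the activating subunit of the Hap2/3/4/5 complex, which turns on genes of the respiratory chain, and it is the subunit whose amount is set by the carbon source. It was at 11.48 in the SIR3 deletion, against 9.82 in the SIR4 deletion, or 3.16-fold higher. The SIR2 deletion had 9.82 and wild type 9.20, so the SIR3 array was the highest of the 4. The subunits HAP2, HAP3 and HAP5 had differences of -0.06, 0.05 and 0.20, and HAP1, a separate haem-dependent activator, had 0.17.

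Of 24 respiratory chain genes, 22 had a positive difference and 1 was called. Over all genes 43.5% were above 0 and 0.496% were called higher. The list median was 0.25. SDH1, the flavoprotein subunit of succinate dehydrogenase, was at 9.87 in the SIR3-deleted strain and 8.75 in the SIR4-deleted strain, or 2.17-fold higher. CYT1, cytochrome c1, had 0.84, SDH2 had 0.57 and COR1, a core subunit of the cytochrome bc1 complex, had 0.56. COX13 and COX9 were the members below 0, at -0.02 and -0.07. The SIR3 array was the highest of the 4 for 19 of the 24, and wild type the lowest for 23, where over all genes these shares were 18.0% and 24.8%. RGI1, a gene of respiratory growth outside the lists, was at 9.50 in the SIR3 deletion, against 8.07 in the SIR4 deletion, or 2.70-fold higher.

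The citric acid cycle genes lay on the same side. Of 14 measured, 13 had a positive difference, against 43.5% of all genes, and none was called. The list median was 0.31. CIT1, citrate synthase, was at 11.73 and 10.83 in the SIR3-deleted and SIR4-deleted strains, a difference of 0.90, and MDH1, mitochondrial malate dehydrogenase, had 0.83. CIT3 was the member below 0, at -0.43. The genes of ATP synthase did not share the difference. None of 12 was called, the median was 0.00, and they ranged from -0.05 to 0.19. Of 20 other glucose-repressed carbon genes, ALD4 alone was called, against 0.496% of all genes called higher. The median of these 20 was -0.10, with CTA1 and FBP1 lowest at -0.85 and -0.81.

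ARN2, FRE4, FIT2, FIT1 and TIS11 of the iron regulon were called lower in the SIR3 deletion. Most genes of the regulon are activated by Aft1 when iron is short, and they serve its retention at the cell wall, its reduction and its uptake. Of 29 measured, 5 were called lower and none higher, and 27 had a negative difference. Over all genes 0.771% were called lower and 56.4% were below 0. The list median was -0.25. ARN2, a siderophore transporter, was at 9.69 in the SIR3 deletion, against 11.01 in the SIR4 deletion, or 2.50-fold lower. FRE4, a ferric reductase, was at 7.64 and 8.90 in the SIR3-deleted and SIR4-deleted strains, or 2.41-fold lower. FIT2 and FIT1, cell wall mannoproteins that hold siderophore-bound iron, had -1.22 and -1.01. TIS11, which promotes decay of mRNAs of iron-using proteins, was at 8.69 and 9.69, just past the limit.

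For the iron genes the SIR3 array was the lowest of the 4 in 24 of 29, against 23.7% of all genes, and wild type was the highest in 18, against 20.9%. FIT2 was at 10.26 in the SIR3 deletion, 11.49 in the SIR4 deletion, 12.80 in the SIR2 deletion and 13.19 in wild type, so both the SIR3 and SIR4 deletions were below the others. FIT3 had -0.65. The high-affinity uptake pair FET3 and FTR1, the oxidase and the permease, had -0.27 and -0.11, and FRE1, the main surface reductase, had -0.16. ISU1, a scaffold of iron-sulfur cluster assembly, was the highest member at 0.48. The calls of FIT1 and TIS11 ended when arrays were centred or normalized again, so 3 of the 5 are clear of those settings.

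ARG4, ARG3 and ARG1 of arginine synthesis were called lower in the SIR3 deletion. ARG4, argininosuccinate lyase, was at 11.51 in the SIR3-deleted strain and 12.70 in the SIR4-deleted strain, or 2.28-fold lower. ARG3, ornithine carbamoyltransferase, was at 8.38 and 9.55, or 2.24-fold lower, and ARG1, argininosuccinate synthetase, at 11.81 and 12.90, or 2.13-fold lower. In the SIR2 deletion these genes were lower still, at 10.86, 7.74 and 10.60, while wild type had 12.21, 9.43 and 12.37. The SIR4 deletion was therefore the highest of the 4 arrays for all 3 genes.

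Of 14 measured genes of arginine and lysine synthesis, 3 were called lower and none higher, with a median of -0.28, and 12 had a negative difference. Over all genes 0.771% were called lower and 56.4% were below 0. ARG7, ARG8, CPA1 and ARG2 were not called, at -0.95, -0.27, -0.26 and -0.21, and the lysine genes LYS20 and LYS21, which encode isoforms of homocitrate synthase, had -0.67 and 0.21. LYS2, deleted in BY4742, was at 4.47 in the SIR3 deletion, against 4.44 in the SIR4 deletion, near background. Of 18 branched-chain and histidine genes none was called and the median was 0.01. Of 23 sulfur amino acid genes STR3, a cystathionine beta-lyase, alone was called at -1.06, with a median of -0.18. PCL5, a cyclin that promotes decay of the amino acid regulator Gcn4, was outside the lists and was at 10.70 in the SIR3-deleted strain and 11.90 in the SIR4-deleted strain, or 2.30-fold lower. ATR1, a transporter of the oxidative stress list, had -1.05 and was the member called of 16, whose median was -0.01.

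The mating genes were compared because both deletions end silencing at HML and HMR. Wild type was the highest of the 4 arrays for all 13 haploid-specific and all 5 alpha-specific genes. Of these and the pheromone response genes, 3 were called lower in the SIR3 deletion than in the SIR4 deletion. STE3, the receptor for a-factor, was at 5.19 in the SIR3 deletion, against 7.03 in the SIR4 deletion, or 3.58-fold lower, with 7.10 in the SIR2 deletion and 12.72 in wild type. NEJ1, a factor of non-homologous end joining that is off in diploids, was at 6.62 and 8.10 in the SIR3-deleted and SIR4-deleted strains, or 2.80-fold lower, with 9.85 in wild type. FUS1, a gene of cell fusion, was at 4.55, barely above background, against 6.03 in the SIR4 deletion, or 2.78-fold lower, with 9.76 in wild type. In each of these the SIR3 array was the lowest of the 4.

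These were the calls among 13 haploid-specific, 5 alpha-specific and 22 pheromone response genes, 1 in each list, against 0.771% of all genes called lower. The medians were -0.19, -0.30 and -0.28. The alpha-specific genes AFB1 and SAG1 had -0.96 and -0.11, and MF(ALPHA)2, an alpha-factor gene, had 0.21. RME1, the haploid repressor of meiosis, went the other way at 0.66, with 6.34 in the SIR3 deletion, 5.68 in the SIR4 deletion and 10.29 in wild type. STE12, the activator of pheromone-responsive genes, had -0.59, and SST2, which damps the pheromone signal, had -0.93. FAR1, STE18, FUS3 and MF(ALPHA)1 were below background in both strains, so no difference between them could be read. Of 7 a-specific genes none was called, all were below 0, against 56.4% of all genes, and the median was -0.20. AGA2 among them was below background in both strains, so its sign could not be read. After repeated quantile normalization the median was -0.05 and ASG7 turned to 0.11. Of the 13 genes of the meiosis list none was called, and the median was -0.20. The meiotic and spore genes SPO19 and SPS1, outside that list, were called lower and are given below.

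At the silent loci themselves, HMRA1, the a1 gene of HMR, was at 9.01 in the SIR3 deletion, against 9.80 in the SIR4 deletion, a difference of -0.79 that was not called. Wild type had 2.87, so both strains lay far above it. The other measured genes named for these loci did not lie above wild type, but their signal cannot be assigned to the silent loci. HMLALPHA1 had -0.33, with levels of 6.58 and 6.91 for the SIR3-deleted and SIR4-deleted strains. Its wild-type level was 11.51, far above both. HMRA2 had -0.05, with levels of 10.80 and 10.85, a little under the wild-type level of 11.15. The probe sets of HMLALPHA1 and HMRA2 can also match similar sequences elsewhere, among them those at the expressed mating locus MAT. Wild type is of mating type alpha, so its HMLALPHA1 signal need not come from HML. The levels of HMLALPHA1 and HMRA2 are therefore not read as a measure of silencing. None of 27 other silencing factors was called, with a median of 0.02 and a range from -0.40 for SAS2, a histone acetyltransferase, to 0.59 for ABF1, a silencer-binding factor.

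Genes near chromosome ends were set apart because the study is titled for subtelomeric heterochromatin. Within 20 kb of an end lay 174 genes, of which 2 were called higher and 4 lower, which is 1.15% and 2.30%, against 25 and 38 of 5275 genes elsewhere, or 0.474% and 0.720%. The medians were -0.06 and -0.03. The 4 lower genes all lay within 10 kb. YAR068W and YAR066W, neighbours near the right end of chromosome I with no standard name, were at 8.23 and 4.11 in the SIR3 deletion, against 10.60 and 6.14 in the SIR4 deletion. YAR068W was 5.19-fold lower, and YAR066W, below background in the SIR3 deletion, at least 3.36-fold lower. The probe set of YAR066W can also match similar sequences. MCH2, which resembles monocarboxylate transporters and lay below background in the SIR3 deletion, was at least 2.18-fold lower, and ARN2 is given above. HXK1 and MHT1, between 10 and 20 kb, were the higher genes, MHT1 with 1.01.

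**Figure D4:**
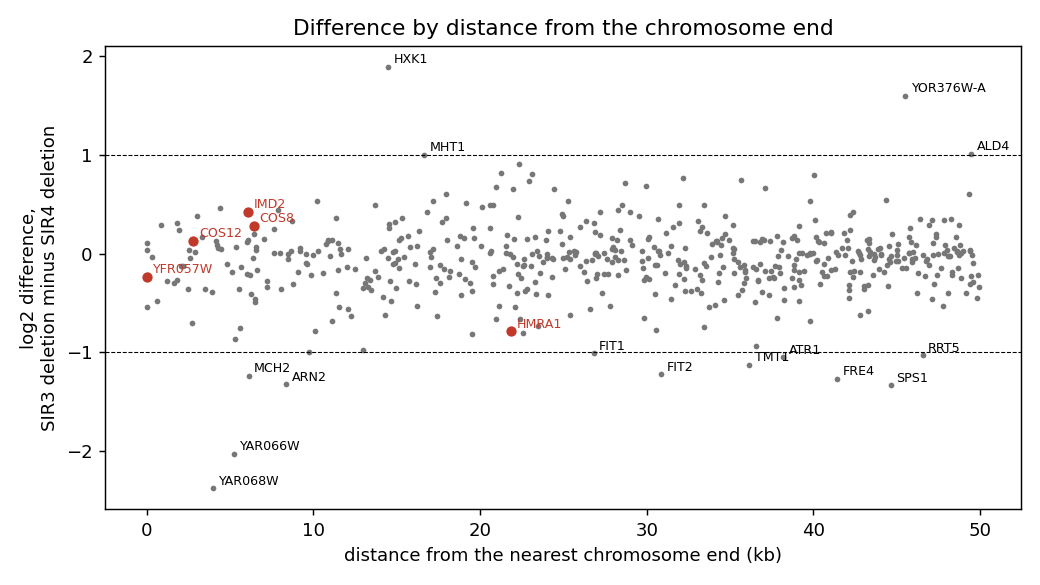
Log2 difference (SIR3 deletion minus SIR4 deletion) against the distance in kb from the nearest chromosome end, for genes within 50 kb, with called genes named in black and 5 Sir-repressed genes in red. YAR068W and YAR066W lie lowest, and COS12, COS8, IMD2, HMRA1 and YFR057W all lie between the dashed 2-fold limits.

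Genes near telomeres that were much higher in both deletions than in wild type were not called between the deletions. COS12, of a family of membrane proteins that sort other proteins to the vacuole, was at 10.41 in the SIR3-deleted strain and 10.28 in the SIR4-deleted strain, with 5.04 in wild type. COS8 was at 11.89 and 11.60, with 9.35 in wild type. Of 8 measured COS genes none was called, the median was 0.17, and the highest was COS6 at 0.45. IMD2, inosine monophosphate dehydrogenase of GTP synthesis, was at 11.61 and 11.19 in the SIR3-deleted and SIR4-deleted strains, a difference of 0.43, with 9.65 in wild type. It was the highest of 8 guanine nucleotide genes, none of which was called, with a median of 0.07.

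YFR057W, the outermost gene of its arm, was at 7.36 in the SIR3 deletion, against 7.59 in the SIR4 deletion, with 2.80 in wild type. YCR108C had -0.54 and YGL262W had -0.87. IME4, the mRNA methyltransferase of meiotic entry, was at 8.06 and 8.12 in the SIR3-deleted and SIR4-deleted strains. These genes were picked with their values known. Among the cell wall genes higher in every deletion, CWP1 was at 13.10 in the SIR3-deleted strain and 12.14 in the SIR4-deleted strain, a difference of 0.96, and HPF1 had 0.72.

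The remaining genes with the largest negative differences came from several functions. NCA3, a gene of mitochondrial biogenesis, had the largest after SIR3. It was at 7.46 in the SIR3 deletion, against 10.13 in the SIR4 deletion, or 6.38-fold lower, with 9.73 in the SIR2 deletion and 7.90 in wild type. In this gene the SIR3 deletion was the one near wild type. SRD1, which acts in pre-rRNA processing, was at 7.58 in the SIR3 deletion, against 9.77 in the SIR4 deletion, or 4.56-fold lower, with 7.44 in the SIR2 deletion and 10.39 in wild type. YCL021W-A, on the same chromosome as SRD1, had the same order of strains, at 7.37 and 8.91 in the SIR3-deleted and SIR4-deleted strains, with 7.28 in the SIR2 deletion and 9.63 in wild type.

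TIR1, a cell wall mannoprotein gene induced by cold and low oxygen, was at 10.51 in the SIR3 deletion, against 12.16 in the SIR4 deletion, or 3.12-fold lower. It had 12.08 in the SIR2 deletion and 11.62 in wild type, so the SIR3 array was the lowest of the 4. The meiotic and spore genes SPO19 and SPS1 had -1.70 and -1.33, and HES1, of the oxysterol-binding protein family, had -1.40. CIS1 had -1.59 and was the member called of 15 drug resistance genes, whose median was -0.26. SNO1, of vitamin B6 metabolism, was at 4.81 in the SIR3-deleted strain and 6.28 in the SIR4-deleted strain, or 2.78-fold lower. It was the gene called of 4 SNZ and SNO genes, whose median was -0.46. Over all genes 0.771% were called lower. YDR042C, which has no standard name, had -1.51, and YFR012W-A and its neighbour DCV1 on chromosome VI had -1.33 and -1.13.

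Among the remaining higher genes, STP4, a zinc finger protein, was at 11.16 in the SIR3 deletion, against 9.90 in the SIR4 deletion, or 2.40-fold higher. SLD7, a factor of DNA replication initiation, was at 8.41 and 7.17, or 2.36-fold higher. The SIR2 deletion and wild type had 9.09 and 9.04 for STP4 and 6.90 and 7.20 for SLD7, so for both genes the SIR3 array was the highest of the 4. YKR075C, which has no standard name, had 1.27, and RAD34, a gene of nucleotide excision repair, had 1.16. YOR376W-A was below background in the SIR4 deletion and at least 2.31-fold higher in the SIR3 deletion. YML003W, also below background there, had a bound of 1.68-fold, so its call does not hold on that scale.

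Growth-related lists showed small differences and no calls. The 35 ribosome biogenesis genes had a median of -0.21, with 34 below 0, against 56.4% of all genes. Of these 35, NOP7 was lowest at -0.51 and UTP4 highest at 0.09. The SIR4 array was the highest of the 4 for 26 of them, against 30.6% of all genes. The 128 genes named RPL, RPS or RPP had a median of 0.01 and ranged from -0.10 to 0.29. The 66 genes named MRP, MRPL, MRPS or RSM, taken by name for the mitochondrial ribosome, had a median of -0.01. The 9 histone genes and 14 cyclin and related genes had medians of 0.04 and -0.13, the 10 daughter cell genes 0.10 and the 8 translation elongation genes 0.02.

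Lists of transport and metabolism gave few calls. The 7 zinc genes were all below 0, against 56.4% of all genes, with a median of -0.47 and none called. They ran from INO1 at -0.78 and the zinc transporter gene ZRT1 at -0.66 to ZRT2 at -0.08. The 12 phosphate genes had a median of -0.07 and none called, with the transporter gene PHO89 at -0.97. The 13 genes of NAD synthesis had a median of -0.05, and PNC1 alone was called, with BNA2 and BNA1 lowest at -0.69 and -0.68. None was called among 13 thiamine, 25 nitrogen catabolism, 8 copper and 13 PAU genes, with medians of -0.33, -0.19, -0.01 and -0.26. Of the PAU genes 10 have probe sets that can match several sequences, and without these the median was 0.02. TIR1 alone was called among 25 ergosterol and anaerobic genes, with a median of -0.07, and TIR1 and YGP1 among 26 cell wall genes, with a median of -0.02. PNC1 was called higher and TIR1 and YGP1 lower, where over all genes 0.496% were called higher and 0.771% lower.

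The limit of 2-fold split a continuous range. Just inside it lay TIS11 at -1.001 and MHT1 at 1.005, and just outside it VBA3, a vacuolar transporter gene, at -0.995 and YPC1, a ceramidase gene, at 0.995. The probe set of VBA3 can also match similar sequences. Of the called genes other than SIR3 and SIR4, 21 of 26 higher and 30 of 41 lower were within 1.5 of 0. NDJ1 was called lower although it lay below background in both strains. Direct comparison of each pair of arrays gave 57 called genes for the SIR3 deletion minus the SIR2 deletion, 69 for the SIR3 deletion minus the SIR4 deletion and 90 for the SIR4 deletion minus the SIR2 deletion. Against wild type the SIR3, SIR4 and SIR2 deletions had 131, 79 and 156. These pairs share arrays, so their counts are not independent.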

How the data were processed

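Per the labels, 200 ng of total RNA a strain was turned into biotin-labelled cRNA and hybridised to 1 array, and samples were grouped by the labelled deletion. The deposited log2 levels, 1 per probe set and array, came from RMA, which the authors ran according to the submitters' processing notes. Neither source used here gives its version. RMA makes the distributions of the arrays alike, so a shift of all genes would not be seen.

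Probe sets were named from the platform's annotation and joined on gene identifiers with the R64 table of RefSeq. The brightest of several probe sets was used for 47 genes. Background was the 95th percentile of probe sets for a different yeast, and a gene below it in 1 strain has a fold change only as a bound. Differences were computed with Python 3.11.15 and pandas 2.3.3, and the rule was tested on simulated data. With 1 array a side the number of arrays limits the precision, and no test was run. Distances used the first base of the sequence as the left chromosome end and the outermost annotated feature as the right end.

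The members and the 43 lists were chosen with earlier results of these data known. A list of Ty genes had no measured member. The text was to name the deleted genes with their neighbours, the 15 largest differences each way above background, and from each list the called genes and the 2 highest and 2 lowest. Other named genes were picked with their values known. Alternatives tried were a 1.5-fold and a 3-fold limit, median centring, repeated quantile normalization, removal of a loess curve on level, leaving out or raising values below background, dropping ambiguous probe sets (suffix _s_at or _x_at), and using a gene's mean over its probe sets. A planned search of promoters for motifs was not run, since no promoter sequence was used here.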

Additional observations from a re-analysis of the deposited data

Results flagged for a closer look

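Of 47 reporter probe sets, which carry no gene name in the annotation and entered no comparison above, 6 were at least 2-fold higher in the SIR3 deletion than in the SIR4 deletion. They ran from 7.44 to 12.76 on the SIR3 array and from 2.49 to 3.53 on the SIR4 array, where all 6 were below the background of 4.28. On the SIR2 array they ran from 7.39 to 13.24 and on the wild-type array from 7.48 to 13.02, so the SIR4 array alone lacked the signal. As bounds against background the SIR3 level was at least 8.93-fold to at least 357-fold higher. The other 41 reporter probe sets differed by at most 0.730. Their names are RPTR-Sc-J01347-1_at, RPTR-Sc-J01347-1_s_at, RPTR-Sc-J01347-2_at, RPTR-Sc-J01347-3_at, RPTR-Sc-J01347-4_at and RPTR-Sc-U46493-1_s_at, so 5 share 1 source record. The annotation used here does not say what they measure. Whether the difference reflects the SIR4 deletion or a sequence that this strain lacked for another reason was not tested.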

How the results depend on the processing

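The counts of genes higher and lower were 115 and 172 at a 1.5-fold limit and 5 and 9 at a 3-fold limit. Under the other 7 alternatives the counts stayed within 1.5 times the reported ones. Of the 69 called genes, 67 kept their call with arrays centred on their medians, 62 after repeated quantile normalization, 64 after removal of the loess curve and 65 with values raised to background. Repeated normalization ended the calls of FIT1, HUG1, PES4, RRT5, SPG4, STR3 and TIS11, and raising values to background those of NDJ1, PES4, VAM10 and YML003W. NDJ1 reversed to 0.11 with values raised to background, being below it in both strains. List medians that turned sign after centring, repeated normalization or loess were at most 0.018 from 0. Without probe sets that match several sequences the medians of the PAU, silent mating, and SNZ and SNO lists were 0.02, -0.79 and -0.997. Such probe sets serve 2 of 3 silent mating genes and 2 of 4 SNZ and SNO genes. The silent mating value is therefore that of HMRA1 alone, and the SNZ and SNO value rests on SNZ1 and SNO1. No paired analysis was possible because each strain had 1 array.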

Other observations

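Of 3470 other probe sets without a gene name, 3 were at least 2-fold higher and 5 lower in the SIR3 deletion than in the SIR4 deletion. The farthest of them was at 8.09 in the SIR3 deletion, against 10.93 in the SIR4 deletion, with 8.18 in the SIR2 deletion and 10.31 in wild type, a difference of -2.84. This exceeds in size the difference of NCA3, the gene farthest apart after the deleted ones. As for SRD1 and YCL021W-A, the SIR3 and SIR2 arrays were the lower pair and the SIR4 and wild-type arrays the higher pair. Another was at 10.77 in the SIR3 deletion, against 9.29 in the SIR4 deletion, with 9.99 in the SIR2 deletion and 7.89 in wild type.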
